A study of Mus musculus with 4 samples.

Results

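The 287 olfactory receptor genes of mouse chromosome 2 were read for called domains of H3K9me3, trimethylation of lysine 9 on histone H3. They are the protein-coding genes of the RefSeq table for assembly GRCm38.p6 (mm10) on this chromosome whose symbol has the form Olfr followed by a number. They were taken from 21774 protein-coding genes in all, of which 1109 are olfactory receptor genes by the same rule. The cells were cultured CD8+ T cells of C57BL/6 background, either wild type (WT, called littermates in the series title) or lacking the H3K9 methyltransferase gene Suv39h1 (KO). Cells of both genotypes had been kept for 3 days with interleukin-2 and antibodies against CD3 and CD28. Each genotype has 1 H3K9me3 library, and its deposited list of islands, stretches called as enriched, was used. Neither the KO allele nor the age, sex or number of mice was stated in the labels. The matching inputs were not analysed here. With 1 library per genotype there is no replicate error, no test between genotypes was possible, and all values describe these 2 libraries.

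Olfactory receptors are G protein-coupled receptors that bind odorants on sensory neurons of the nose. Each such neuron expresses a single receptor gene from a single allele, and the remaining receptor genes lie silent under H3K9me3 and H4K20me3. The genes stand in tandem arrays in gene-poor, AT-rich parts of the genome, usually with the whole coding sequence in 1 exon. Suv39h1 is best known for H3K9me3 at repeats near centromeres, while receptor genes in olfactory neurons also depend on other H3K9 methyltransferases.

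More receptor genes of chromosome 2 lay under KO islands than under WT islands. A gene was counted when an island covered at least 1 bp of the gene with 2 kb on each side. By this count 49 of the 287 genes carried a WT island (17.1%, exact Clopper-Pearson 95% interval 12.9 to 21.9), and 148 carried a KO island (51.6%, 45.6 to 57.5). Over all 21774 protein-coding genes these shares were 14% in WT and 13.7% in KO. By this 1 bp count, which long genes meet more easily, the WT share of the receptors lay near the share over all genes. The KO share lay well above it. With at least 50% of the gene region covered, 13.6% of the receptors had a WT island, against 2.60% of all genes. The KO shares by that rule were 35.5% and 3.23%. By the 1 bp count, an island in KO alone was found over 116 receptors (40.4%, against 6.16% of all genes). One in WT alone was found over 17 (5.92%, against 6.39%). A further 32 receptors had islands in both lists (11.1%, against 7.58% of all genes), and 122 in neither. The intervals treat genes as independent and cover counting only, whereas neighbouring genes can share an island. A gene without a called island can still carry the mark below the calling threshold.

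Among the other genes of the chromosome fewer had a KO island than a WT island. Of 1495 protein-coding chromosome 2 genes that are no olfactory receptors, 232 (15.5%) carried a WT island and 154 (10.3%) a KO island. The KO list as a whole is longer, with 25424 islands and 10020253 reads against 12371 islands and 5547695 reads in WT. When the KO list was reduced to 12371 islands, keeping those with most reads, 96 receptors (33.4%) had a KO island, against 8.40% of all genes. When those with most reads per kb were kept, a setting chosen after the data were seen, 81 (28.2%) had one, against 8.99% of all genes.

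**Figure D1:**
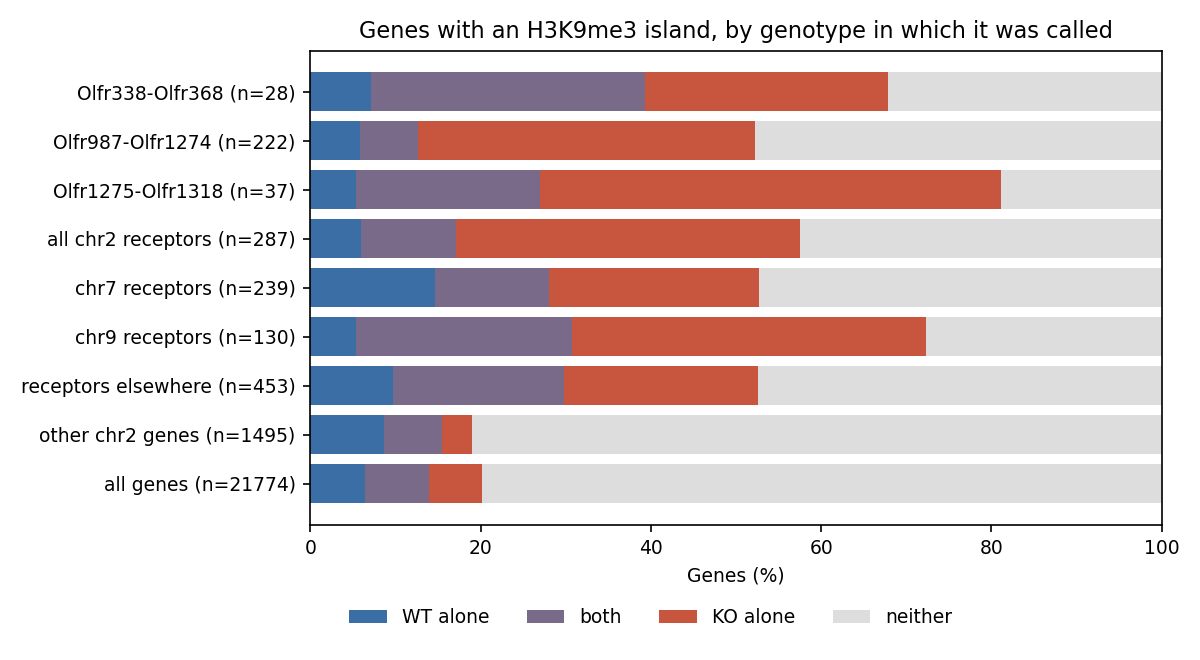
Share of genes (horizontal axis, %) with a called H3K9me3 island in WT alone, in both lists, in KO alone or in neither, for each chromosome 2 receptor cluster, for receptors by chromosome, for the other chromosome 2 genes and for all protein-coding genes; n is the number of genes. The KO-alone part is 40.4% for the 287 chromosome 2 receptors and 6.16% for all genes.

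All 287 genes fell into 3 clusters, in which neighbouring receptors lie at most 500 kb apart. The Olfr338 to Olfr368 cluster (chr2:36376778-37332732) holds 28 genes, the Olfr987 to Olfr1274 cluster (chr2:85330967-90401674) 222, and the Olfr1275 to Olfr1318 cluster (chr2:111230853-112157007) 37. Gene models had a median length of 945 bp, from 842 to 60182 bp. Neighbours lay a median of 18.4 kb apart. Symbols from the older MOR nomenclature, which numbers families by protein similarity, were given for 280 genes and spread over 55 families, numbered from MOR127 to MOR264.

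Start windows of 6 receptors are printed here, 3 with an island in KO alone (1 per cluster), 2 in both lists and 1 in WT alone, to show the kind of sequence that lay under the islands. Each is the RefSeq window of 250 bases before to 50 bases after the annotated start, GRCm38.p6, and lies wholly inside the called island. In each of the 6, base 251 of the window opens an ATG, so the gene model starts at the coding sequence and the true transcription start may lie further upstream. Only genes with a single window, placed exactly at the start in the gene table, were considered, so that Olfr1275, for example, was left out. Among genes of a class and cluster that met these conditions, the one with the longest cover was taken, a choice made after the values were seen. Capitals mark TAATNA, the core bound by many homeodomain factors, on either strand.
Olfr356: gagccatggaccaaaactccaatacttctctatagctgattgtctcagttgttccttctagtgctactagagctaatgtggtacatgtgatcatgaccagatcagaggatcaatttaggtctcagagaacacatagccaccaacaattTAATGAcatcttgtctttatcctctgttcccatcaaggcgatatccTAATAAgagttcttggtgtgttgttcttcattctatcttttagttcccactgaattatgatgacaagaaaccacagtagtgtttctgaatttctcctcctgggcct
Olfr1024: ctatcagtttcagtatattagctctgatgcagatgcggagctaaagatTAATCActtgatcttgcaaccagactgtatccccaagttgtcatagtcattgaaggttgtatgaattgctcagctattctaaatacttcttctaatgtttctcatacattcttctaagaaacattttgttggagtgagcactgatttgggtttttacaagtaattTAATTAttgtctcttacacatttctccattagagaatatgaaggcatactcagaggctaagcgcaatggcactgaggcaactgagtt
Olfr1302: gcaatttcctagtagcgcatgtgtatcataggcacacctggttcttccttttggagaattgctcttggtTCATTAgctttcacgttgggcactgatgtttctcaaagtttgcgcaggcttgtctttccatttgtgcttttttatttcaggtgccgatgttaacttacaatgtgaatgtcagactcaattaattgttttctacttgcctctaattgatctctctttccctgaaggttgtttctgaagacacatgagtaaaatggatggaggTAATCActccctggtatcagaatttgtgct
Olfr341: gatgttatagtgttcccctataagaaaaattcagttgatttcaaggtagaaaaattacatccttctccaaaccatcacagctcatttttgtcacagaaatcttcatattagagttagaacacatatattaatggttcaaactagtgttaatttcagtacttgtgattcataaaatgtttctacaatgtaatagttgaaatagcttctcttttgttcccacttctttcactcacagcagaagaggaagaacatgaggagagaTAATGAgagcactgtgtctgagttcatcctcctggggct
Olfr1308: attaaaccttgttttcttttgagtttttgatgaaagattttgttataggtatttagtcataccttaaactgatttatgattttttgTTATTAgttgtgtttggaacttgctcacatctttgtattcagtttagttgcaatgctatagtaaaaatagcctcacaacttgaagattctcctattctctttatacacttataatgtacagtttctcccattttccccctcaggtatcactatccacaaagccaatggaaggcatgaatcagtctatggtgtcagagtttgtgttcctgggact
Olfr1253: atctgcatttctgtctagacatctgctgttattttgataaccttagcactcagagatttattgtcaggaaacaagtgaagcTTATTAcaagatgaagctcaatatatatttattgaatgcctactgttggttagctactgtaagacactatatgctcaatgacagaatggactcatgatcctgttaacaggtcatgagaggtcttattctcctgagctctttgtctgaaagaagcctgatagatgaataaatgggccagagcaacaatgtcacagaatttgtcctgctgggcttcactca
Olfr356 (window chr2:36936871-36937170, plus strand), Olfr1024 (chr2:85905003-85905302, minus) and Olfr1302 (chr2:111780063-111780362, plus) had an island in KO alone. Olfr341 (chr2:36480079-36480378, minus) and Olfr1308 (chr2:111961022-111961321, minus) had islands in both lists, and Olfr1253 (chr2:89752777-89753076, minus) in WT alone.

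These windows were AT-rich and poor in CpG in every class of receptor. RefSeq start windows were matched for 243 of the 287 genes, and 182 of them opened with ATG at base 251. Their median GC content was 32.7%, from 18.3% to 46.7%, with a median of 1 CpG, against 52.7% and 7 CpG over the windows of 27025 genes. By class, the median GC content was 33% for 97 windows of genes with an island in KO alone and 31.8% for 100 windows of genes with none. It was 35.2% for 30 windows of genes with islands in both lists and 34% for 16 of genes with one in WT alone. TAATNA stood in 188 of the 243 windows (77.4%), against 26.8% of all genes' windows, which are richer in GC. TATAAA, a form of the TATA box, stood in 49.4%, against 14.2%. The motifs were searched on both strands, and they can share bases. TAATNA was present in 74.2% of the windows of genes with an island in KO alone and in 79% of those with none. The first 50 coding bases are part of most windows, so these shares describe the printed stretch and not a mapped promoter. Islands touched 39 of the 243 windows in WT (16.0%) and 88 in KO (36.2%).

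Of the sequence of the clusters, 10.5% lay in WT islands and 28.4% in KO islands, a ratio of 2.70. In kb, WT islands covered 732 kb and KO islands 1975 kb of the 6953 kb of the 3 clusters. Outside the clusters, chromosome 2 had 6.77% of its length in WT islands and 10.2% in KO islands, a ratio of 1.50. With equal island numbers by reads the ratio was 1.98 in the clusters and 1.02 outside, and by reads per kb 1.24 and 0.637. The clusters make up 3.89% of the length between the first and last island of the chromosome. They held 5.91% of its WT cover and 10.2% of its KO cover. Of the covered sequence in the clusters, 410 kb was shared, 322 kb was in WT alone and 1566 kb in KO alone.

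**Figure D2:**
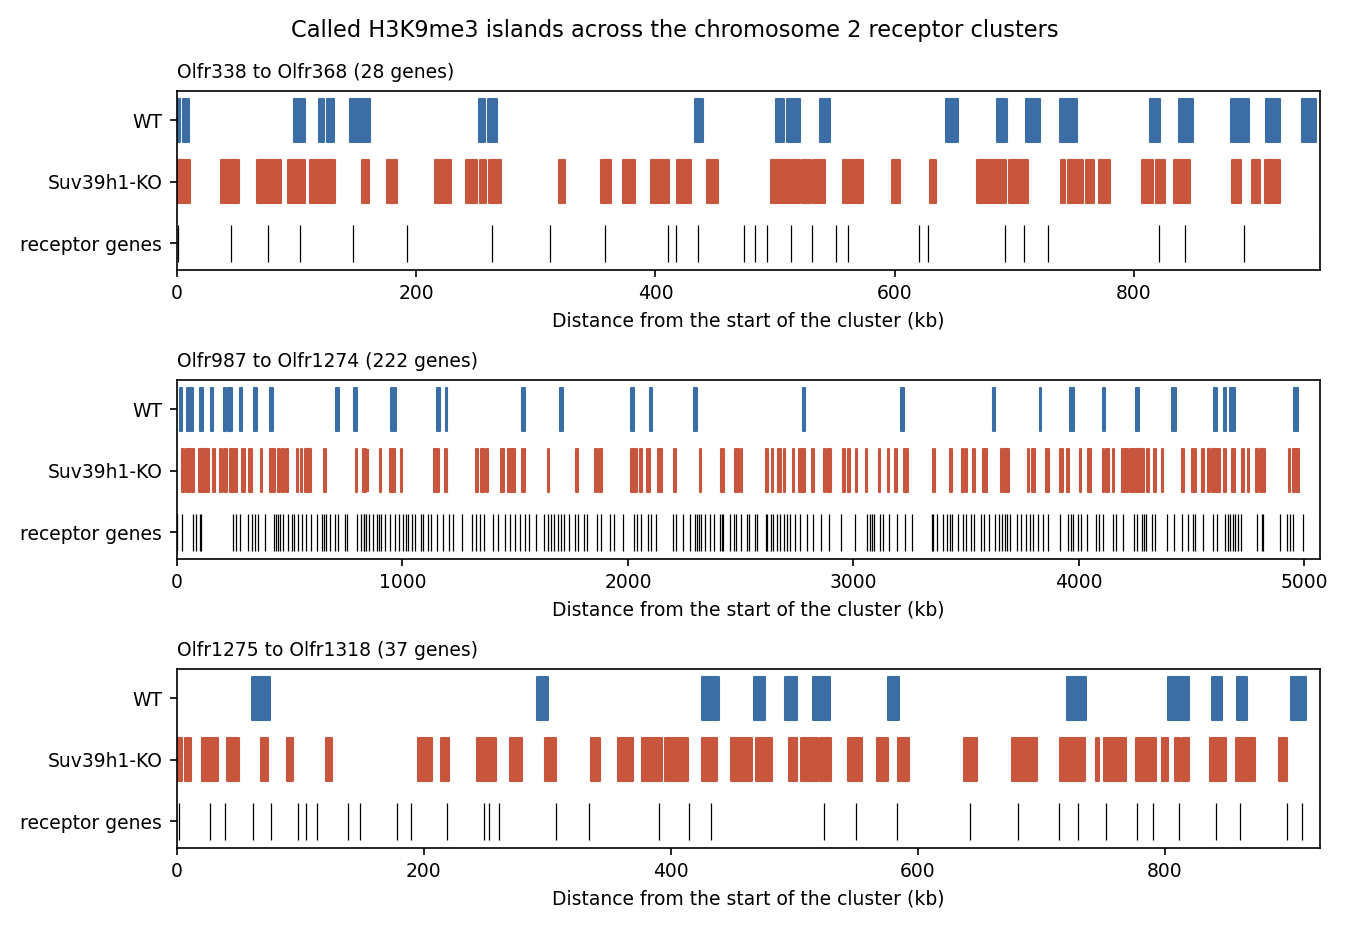
Called islands of the WT list (top row) and the KO list (middle row) over the 3 receptor clusters, with receptor gene midpoints as ticks (bottom row); the horizontal axis is the distance from the start of each cluster in kb. There are 66 WT and 187 KO islands in the 3 clusters, and KO islands outnumber WT islands in each cluster.

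The Olfr987 to Olfr1274 cluster had the lowest cover in both libraries and a ratio of 3.00 between them. It had 33 WT islands over 398 kb (7.84%) and 115 KO islands over 1193 kb (23.5%). Of its 222 genes, 28 carried a WT island (12.6%) and 103 a KO island (46.4%), with islands over 88 in KO alone, 13 in WT alone and 15 in both. The Olfr338 to Olfr368 cluster had 20.2% of its length covered in WT by 21 islands and 41.0% in KO by 35 islands. Here 11 of 28 genes carried a WT island and 17 a KO island, 9 of them both. The Olfr1275 to Olfr1318 cluster had 15.2% of its length in 12 WT islands and 42.2% in 37 KO islands. Of its 37 genes 10 carried a WT island (27.0%) and 28 a KO island (75.7%). All 3 clusters thus had more KO than WT cover, by 2.03, 3.00 and 2.77 times in their order along the chromosome.

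Long stretches of the clusters were free of WT islands. The longest was 468.5 kb, chr2:87638501-88107000 in the middle cluster, while the longest free of KO islands in the 3 clusters was 139 kb, chr2:86330501-86469500. In windows of 250 kb, KO cover exceeded WT cover in 25 of 26 windows. The median was 7.60% in WT and 26.6% in KO, with ranges of 0 to 32.6% and 9.01 to 51.2%. The exception was the window from Olfr1095 to Olfr1107, with 9.80% in WT and 9.01% in KO. Of 684 such windows elsewhere on the chromosome, 283 (41.4%) had more KO cover and 229 more WT cover. The median cover there was 4.20% in WT and 3.80% in KO. WT islands were missing from 4 of the 26 cluster windows and KO islands from 0.

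**Figure D3:**
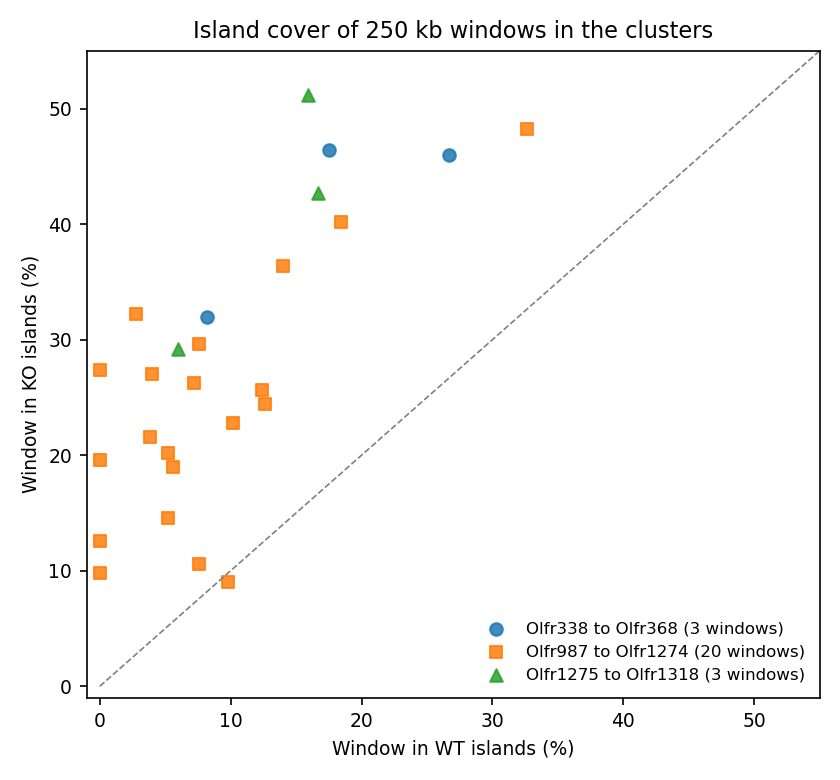
Island cover of the 26 full 250 kb windows in the 3 clusters, with the share of the window in WT islands on the horizontal axis and in KO islands on the vertical axis (%); each point is a window, symbols mark the cluster and the dashed line marks equal cover. All points but 1 lie above the line.

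The islands in the clusters were close to the medians of their lists in density. Reads per kb had a median of 39.7 in the 66 WT islands, against 40.4 in the whole WT list. In the 187 KO islands the median was 40.2, against 40.1 in the whole KO list. Within each list, the densest island of the clusters had 52.8 reads per kb in WT (chr2:36495501-36499500) and 57.7 in KO (chr2:111975001-111978000). Median island length was 11 kb in WT and 9.50 kb in KO, against 10 kb and 9 kb over the lists. Counts are not scaled to library depth, so reads per kb were compared within a list, and at shared islands only as raw values. In 28 pairs of WT and KO islands that cover at least 50% of each other, the median was 40.8 reads per kb in WT and 41.3 in KO. The KO value was higher in 15 of the 28 pairs, with ratios from 0.838 to 1.41. The highest ratio was at Olfr1299, with 34.6 reads per kb in WT and 48.9 in KO.

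A KO island overlapped 51 of the 66 WT islands (77.3%, exact 95% interval 65.3 to 86.7). A WT island overlapped 53 of the 187 KO islands (28.3%, 22.0 to 35.4). Over the whole lists these shares were 48.0% of WT islands and 24.9% of KO islands. A single island rarely took in several genes. Among KO islands, 117 touched the region of 1 receptor, 18 touched 2 or 3, and 52 touched none. Among WT islands these numbers were 34, 7 and 25. The midpoints of the receptor genes lay inside an island in 13.6% of cases in WT and 34.8% in KO, beside 10.5% and 28.4% of all cluster sequence. Inside the clusters RefSeq lists 85 receptor pseudogenes, of which 19 (22.4%) carried a WT island and 39 (45.9%) a KO island. Genes listed as protein-coding and as pseudogenes were thus both covered more often in KO. Olfr367-ps, listed as protein-coding, had 8.44 kb of WT and 1.05 kb of KO island.

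Among receptors with an island in KO alone, the widest cover lay over Olfr32 in the middle cluster (chr2:90138081-90149990). Its region had 13.4 kb in 2 KO islands of 38.8 and 36.6 reads per kb, and the nearest WT island lay 111 kb away. Olfr1202 had 6.60 kb in KO (71.0% of its region), with the nearest WT island at 128 kb. Olfr1234 had 6.15 kb, with the nearest WT island at 51.5 kb. All 3 gene models are longer than the median of 945 bp, which raises the length that can be covered. The KO cover of all 3 was 0 with dense islands, those denser than the median of their list, and with equal island numbers by reads per kb, and that of Olfr1202 also with equal numbers by reads. In the first cluster Olfr356, Olfr340 and Olfr347 had their whole regions of 4.95, 4.94 and 4.94 kb inside KO islands. These islands were 17, 19.5 and 9 kb long, and the nearest WT islands lay 12.1, 19.5 and 72.2 kb away. In the last cluster Olfr1280, a 60182 bp gene model, had 10 kb in 2 KO islands. Olfr1275, the first gene of that cluster, had 6.15 kb, and Olfr1302 its whole region. The nearest WT islands to Olfr1280, Olfr1275 and Olfr1302 lay at 5.45, 56.1 and 18.3 kb. With equal island numbers by reads, Olfr1280 and Olfr1275 had 0 kb of KO island.

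The 116 genes with an island in KO alone have no WT island in their regions by definition, so their distances to WT islands partly follow from that choice. The median distance from gene region to the nearest WT island was 37.9 kb, and 18 of the 116 had a WT island within 10 kb. For the 122 genes with no island in either list the median was 47.7 kb. The longest unbroken row of genes with an island in KO alone was from Olfr1287 to Olfr1298 (chr2:111449142-111645995). Its 8 genes are Olfr1287, Olfr1288, Olfr1289, Olfr1290, Olfr1294, Olfr1295, Olfr1297 and Olfr1298. KO islands covered 1.44 kb of the region of Olfr1295 and 4.94 kb of that of Olfr1288, with the other genes between. The nearest WT islands lay between 3.85 and 70.4 kb away. Of the 116, 19 had an island in KO alone in each of the 7 settings run, among them Olfr340, Olfr347, Olfr356, Olfr1288, Olfr1302 and Olfr1306.

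Genes with islands in both lists numbered 9, 15 and 8 in the 3 clusters. The widest cover in the first cluster was over Olfr365, with 7.60 kb under 1 WT island and 10.1 kb under 2 KO islands. Olfr341 and Olfr345 had their whole regions covered in both. In the middle cluster Olfr994 had 7.19 and 10.3 kb (WT and KO), under a WT island of 13.5 kb and a KO island of 16 kb that also took in Olfr995. Olfr1258 had 4.75 and 7.25 kb, and Olfr1246 had 5.08 kb in both. In the last cluster the whole regions of Olfr1299 (7.71 kb), Olfr1308 (4.96 kb) and Olfr1301 (4.94 kb) were covered in both. Of the 32 genes, 13 had equal cover, 11 more in KO and 8 more in WT.

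The longest islands of the clusters showed both patterns. In the middle cluster the longest WT island (chr2:89999501-90025000, 25.5 kb, 943 reads) held Olfr1262, Olfr1263 and Olfr1264. KO islands covered 13.5 kb of it, with the whole region of Olfr1263, 2.36 kb of that of Olfr1264 and none of that of Olfr1262. The longest KO island there (chr2:90279001-90306500, 27.5 kb, 1184 reads) held Olfr1272, of whose region a WT island covered 1.07 kb. In the first cluster 2 KO islands were longest, at 24 kb each. One (chr2:36873501-36897500) held Olfr353, which was also wholly under a WT island of 11 kb, and the other (chr2:37046001-37070000) held Olfr360, with 4.19 kb of WT and 3.69 kb of KO island over its region. The longest KO island of the last cluster (chr2:111907001-111927500, 20.5 kb) held Olfr1306 and overlapped no WT island. The longest WT island of that cluster (chr2:112033501-112051000, 17.5 kb) held Olfr1312, whose region was 100% covered in WT and 59.6% in KO.

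The 17 genes with an island in WT alone (5.92%, against 6.39% of all genes) were spread over all 3 clusters. Olfr1033 in the middle cluster (chr2:86020640-86044808) had 11.3 kb under a WT island of 14 kb and 493 reads. The same island covered the whole region of Olfr1034, and the nearest KO islands lay 25.1 and 50.9 kb away. Olfr1006 had 8.24 kb, with a KO island at 8.71 kb. In the first cluster Olfr342 had 8.85 kb, with a KO island 1.15 kb from its region, and Olfr3 had 4.94 kb, with one at 3.65 kb. In the last cluster the pair was Olfr1317 (4.95 kb) and Olfr1278 (3.71 kb), with KO islands at 9.95 and 3.79 kb. The gene models of Olfr1033, Olfr342 and Olfr1006 are long (24169, 8223 and 4531 bp), which raises the length that can be covered. With dense islands, the WT cover of each gene named in this paragraph was 0, except that of Olfr3. Over the 17 genes the median distance to the nearest KO island was 9.95 kb, and 9 had one within 10 kb. For the 122 receptors with no island in either list the median was 12.2 kb. In the 7 settings run, 0 of the 17 kept this status throughout.

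Receptors without an island in either list were 122, of which 106 lie in the middle cluster. The longest row ran from Olfr1055 to Olfr1066 (chr2:86346724-86456269), with 8 genes and the nearest KO islands 11.2 to 53.5 kb away. The last genes of the 3 clusters, Olfr368, Olfr1274 and Olfr1318, had no island, and neither had Olfr987, the first gene of the middle cluster. Olfr338, the first gene of the first cluster, had 4.72 kb of WT and 4.92 kb of KO island. A WT island came within 0.249 kb of the region of Olfr368, whereas the nearest WT and KO islands to that of Olfr1274 were 97.1 and 92.1 kb away. The median distance of the 122 genes to the nearest KO island was 12.2 kb, and to the nearest WT island 47.7 kb.

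Counts of covered genes varied between receptor families. Of the 12 MOR families with 8 or more members, 11 had more members under KO islands than under WT islands. MOR174, with 14 genes from Olfr1155 to Olfr1176 (chr2:87942682-88340514), had islands over 0 genes in WT and 10 in KO, under 9 separate KO islands. Its neighbour MOR177, with 13 genes (chr2:87532035-87897133), had islands over 2 genes in each list, and over different ones: Olfr1131 and Olfr1132 in WT, Olfr1140 and Olfr1141 in KO. In both cases the 2 genes shared 1 island. MOR230 had 0 of 8 genes in WT and 6 in KO, MOR185 0 and 5 of 9, and MOR225 0 and 4 of 11. MOR245, of which 21 of 22 genes lie in the last cluster, had 8 genes under WT islands and 17 under KO islands. MOR248, also of the last cluster, had 2 and 11 of 16. MOR136 of the first cluster had 5 and 8 of 14. Members of a family tend to lie near each other, while some families share a stretch, such as MOR225 (chr2:88391249-88897648) and MOR230 (chr2:88461342-88910391). Family and place in the cluster were not told apart here.

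**Figure D4:**
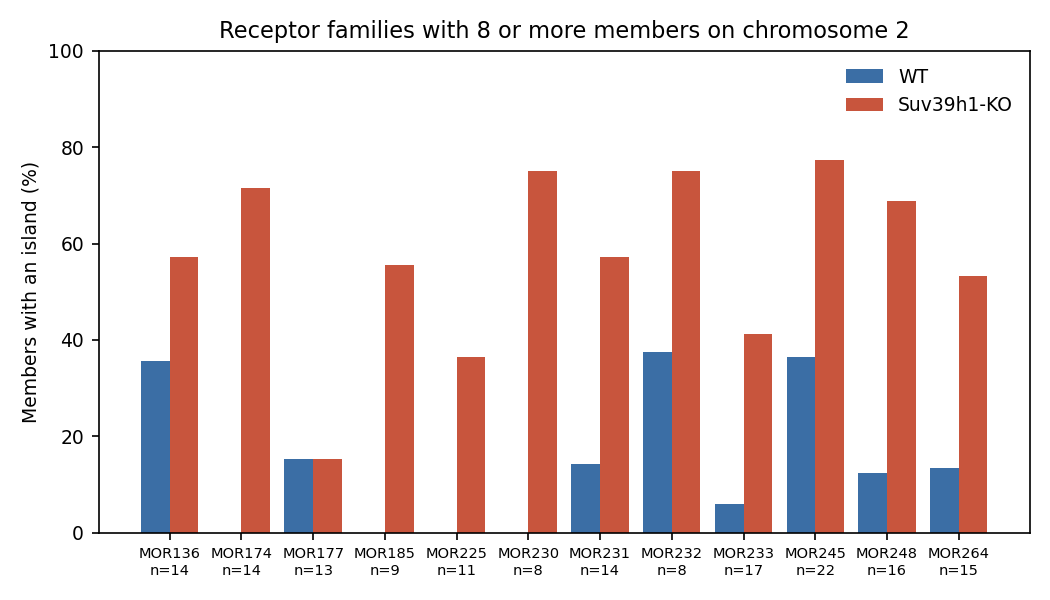
Share of genes under called H3K9me3 islands of WT and of KO (vertical axis, %) for the 12 MOR families with 8 or more chromosome 2 members; n is the number of genes. MOR177 has the same share of 15.4% in both lists, and the 11 other families are higher in KO.

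KO cover was higher inside than outside at 6 of 6 cluster edges, and WT cover at 4 of 6. Over the 6 edges, the 500 kb outside had a mean cover of 6.03% in WT and 6.59% in KO, and the 500 kb inside 18.2% and 39.5%. The first and last clusters are 956 and 926 kb long, so their inside stretches from start and end overlap. The 6 inside values are therefore not separate. At the end of the middle cluster KO cover was 0% outside and 28.6% inside, and at the end of the last cluster 0% and 47.1%. The start of the last cluster had the most KO cover outside, 29.9% against 40.2% inside. That side holds Ano3, a TMEM16-family gene, with 28 kb of WT and 63.4 kb of KO island, and A26c3 with 20.5 and 86.1 kb.

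**Figure D5:**
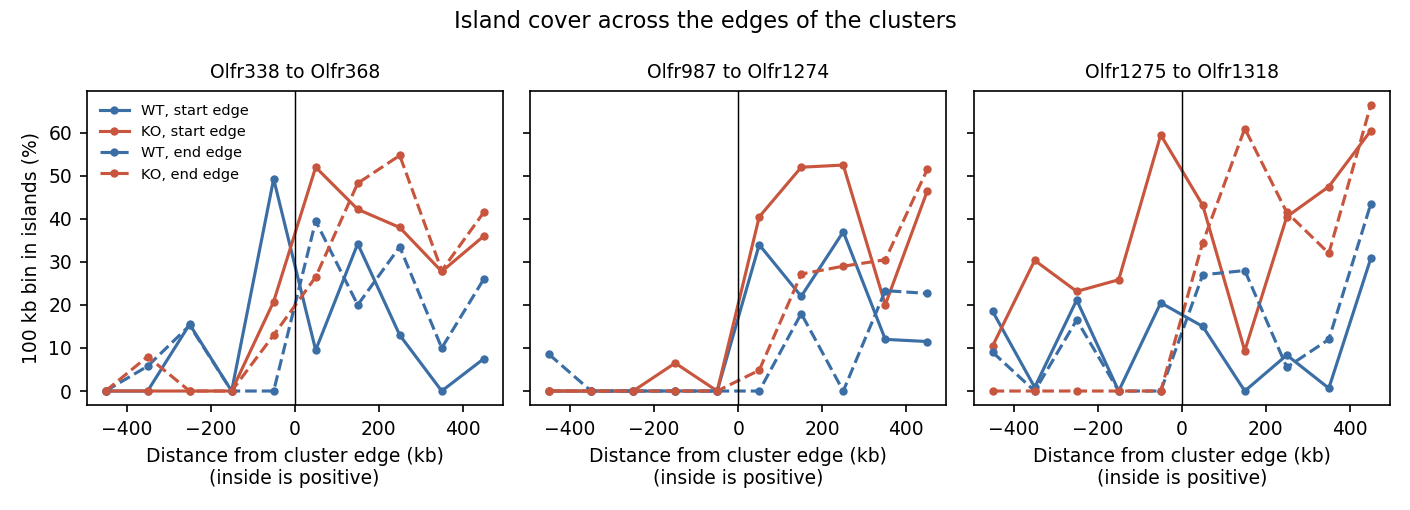
Island cover (vertical axis, % of each 100 kb bin) from 500 kb outside to 500 kb inside the start and end edges of the 3 clusters, for WT and KO; the vertical line is the outermost receptor gene. KO cover is 0% in the 500 kb beyond the end edges of the middle and the last cluster.

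Among the 51 other protein-coding genes inside the clusters or within 500 kb of them, 10 carried a WT island (19.6%, against 14% of all genes). A KO island was found over 6 (11.8%, against 13.7% of all genes). Of the 51 genes 1 (1.96%, against 6.16% of all genes), Rc3h2, which encodes Roquin-2, had an island in KO alone (8.14 kb). The 5 genes with one in WT alone (9.80%, against 6.39% of all genes) were Lhx6, Rbm18, Dennd1a, C1qtnf4 and Muc15. Of the 3 such genes inside the middle cluster, Fads2b had 8.50 kb of WT and 6.94 kb of KO island, and Pramel6 and Pramel7 had none.

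Genes of olfactory signalling were covered about as often as all genes. Of 17 genes of olfactory signal transduction and receptor transport, 3 had islands in both lists (17.6% in each, against 14% and 13.7% of all genes) and 14 in neither. Gnal, the olfactory G protein alpha subunit, had 15 kb of WT and 6 kb of KO island. Ano2, the calcium-activated chloride channel, had 12.5 and 28 kb, and the phosphodiesterase gene Pde1c 32.0 and 65 kb. Of 19 genes that act in receptor choice or on the chromatin of receptor genes, 3 carried a WT island and 2 a KO island. These were Ebf1 (10.5 and 6 kb), Ebf4 (13 kb in WT alone), Emx2 (3.86 kb in WT alone) and Ebf2 (8.50 kb in KO alone). The adenylyl cyclase gene Adcy3, Omp, Lhx2, Ldb1, Lbr, Setdb1 and Suv39h1 had none, and islands cannot be used to check the loss of Suv39h1. None of 12 T cell genes, such as Cd3e, Cd8a and Lck, had an island in either list. Islands do not measure expression, so the labelled cell type was not checked by these genes.

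Receptors of chromosomes 7 and 9, and the rest pooled, were also covered more often in KO. Of 239 chromosome 7 receptors 28.0% carried a WT island and 38.1% a KO island, and of 130 on chromosome 9 the shares were 30.8% and 66.9%. The 453 receptors elsewhere had 29.8% and 42.8%, but not on every chromosome: the 83 of chromosome 11 had 25.3% and 21.7%, and the 24 of chromosome 4 had 4.17% in each list. The chromosome 2 receptors had the lowest WT share of these 4 groups, at 17.1%, and the second highest KO share. By single chromosome they ranked 6 in KO share and 10 in WT share, counted from the highest. KO shares were higher on chromosomes 16 (77.8%), 10 (70.6%), 9, 14 (53.8%) and 19 (52.4%). WT shares were lower on chromosomes 1 (14.8%) and 4. The KO minus WT difference was 34.5 percentage points on chromosome 2, 36.2 on chromosome 9, 10.04 on chromosome 7 and 13.0 elsewhere. Within the pooled group it was 27.8 on chromosome 16, 25.0 on 6, 23.8 on 19, 23.1 on 14 and 20.6 on 10. It was 16.0 on chromosome 17, 7.41 on 1, 0 on 4 and -3.61 on 11. Clusters covered in the same way had 12.7% and 18.6% of their length in islands on chromosome 7, and 15.0% and 35.7% on chromosome 9. With 1 library per genotype these differences between chromosomes could not be tested.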

How the data were processed

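H3K9me3 ChIP-seq of cultured CD8+ T cells was used through 2 deposited island lists, 1 per genotype. Groups follow the titles. Bowtie2, SICER 1.1 and the mm10 build are named in the submitters' processing notes. The window, gap, threshold, read filters and use of the input were not given there, and the effect of multi-mapping reads on near-identical receptor copies was not tested. The deposited whole-number count per island was read as ChIP reads and carries no scaling, per its values. Coordinates lie on a 500 bp grid with gaps of at least 2000 bp and were converted to positions counted from 1.

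Genes came from the RefSeq table of GRCm38.p6, without 348 genes on scaffolds outside the chromosomes. Overlaps were computed with Python 3.11.15, numpy 2.4.6 and pandas 2.3.3, and the interval functions were tested on simulated data. Clusters join receptors at most 500 kb apart (at least 3 genes). Genes are named by a rule: per cluster the 3 longest covered in each class (WT alone, KO alone, both), the first and last gene, and the genes inside the longest island of each list. Other receptors named, in rows, families and printed windows, were chosen after their values were seen. Members and lists were chosen with earlier results of these data known. Other settings were denser islands, equal island numbers, other flanks and 50% cover.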

Additional observations from a re-analysis of the deposited data

How the results depend on the processing

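More receptors had an island in KO than in WT in all 7 settings run. The KO minus WT difference, 34.5 points as reported, was 40.8 with 10 kb on each side, 25.8 without flanks, 22.0 with at least 50% of the gene region covered and 22.0 with dense islands, those denser than the median of their list. It was 16.4 with equal numbers of islands by reads and 11.1 by reads per kb, settings that drop KO islands alone and so can only lower it. The KO count of 148 became 96 and 81 in these 2 settings and 81 with dense islands, and the KO-alone count of 116 became 69, 62 and 72. Over all genes the KO shares in these 3 settings were 8.40%, 8.99% and 9.09%, and the KO-alone shares 3.36%, 3.33% and 4.89%. The WT count of 49 became 79 with 10 kb flanks (27.5%, against 18.7% of all genes). With dense islands it became 18 (6.27%, against 8.95% of all genes). The WT-alone count of 17 became 9 with dense islands and 30 with equal numbers by reads per kb. Over all genes the WT-alone shares in these 2 settings were 4.74% and 8.31%. The count in both, 32, became 61 with 10 kb flanks, 9 with dense islands and 19 with equal numbers by reads per kb. These counts in both were not set against a share in both over all genes. The all-gene WT and KO shares moved too, to 18.7% and 17.6% with 10 kb flanks and 8.95% and 9.09% with dense islands. Cluster cover in KO became 20.8% (equal numbers by reads), 13.0% (by reads per kb) and 13.0% (dense islands, where WT cover was 3.66%). Splitting clusters at 200 kb or 1 Mb changed no cover. Of the named genes, Olfr1258 (-3.00 kb, KO minus WT) and Olfr365 (-5.50 kb) reversed with equal numbers by reads. Olfr1264 (2.36 kb) and Olfr1312 (2.95 kb) reversed with dense islands, and Olfr994 (-7.19 kb) did so there and with equal numbers by reads per kb. Olfr360 (10.5 kb) reversed with 10 kb flanks. The equal-number setting by reads per kb was chosen after the data were seen. Each other change follows from fewer islands, a wider or narrower region, or a higher required cover. No paired analysis was possible because neither genotype has a replicate library. Depth of the whole libraries and the inputs are not known here, which limits any reading of a missing island.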
